A study of Mus musculus with 13 samples.

Results

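The 9 genes described here mark medium spiny neurons, the projection neurons of the striatum: Drd1, Drd2, Adora2a, Ppp1r1b, Rgs9, Pde10a, Penk, Tac1 and Pdyn. They were taken by name from the 55536 genes in the deposited files, with earlier results of these data known. All 9 were among the 17483 genes that passed the filter on low counts. RNA sequencing was done on the frontal cortex of mice of 2 genotypes at 2 ages, in 13 libraries. The groups were 5XFAD mice at 6 months (3 libraries), WT mice at 6 months (4 libraries), 5XFAD mice at 11 months (3 libraries) and WT mice at 11 months (3 libraries). The labels give the strain of the WT mice as B6SJLF1/J and of the transgenic mice as 5XFAD. 5XFAD mice carry mutated human transgenes, APP being one, driven by regulatory sequence of the mouse Thy1 gene, which is active mainly in neurons, and are a model of amyloid deposition. The labels do not tell whether each library is a separate animal; the p-values therefore reflect library-to-library spread, part of which may be technical.

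Medium spiny neurons receive dopamine from the midbrain and fall into a pair of classes. Neurons of the direct pathway carry the Drd1 receptor, which raises cAMP through the olfactory type G protein and adenylyl cyclase, and release substance P and dynorphin, made from Tac1 and Pdyn. Neurons of the indirect pathway carry the Drd2 receptor, which lowers cAMP, and the adenosine receptor Adora2a, which raises it, and release enkephalin, made from Penk. Both classes hold the phosphatase regulator encoded by Ppp1r1b, the G protein brake Rgs9 and the cyclic nucleotide phosphodiesterase Pde10a. The striatum lies directly beneath the frontal cortex, and some of these genes, such as Drd1 in deep-layer neurons and Penk, Tac1 and Pdyn in subsets of interneurons, are also used by cortical cells.

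Promoters of 4 members are shown as examples. The members varied together from library to library, Pdyn least closely, as described further on. A link of that variation to these sequences was not tested. RefSeq promoter windows were at hand for 6 of the 9 genes, with 9 windows in all, on GRCm38.p6. There was none for Penk, Adora2a and Ppp1r1b, which were not searched. Each line gives bases upstream of the RefSeq start, read 5′ to 3′ on the gene's own strand, with motif matches in capitals. The Tac1 line stops after 68 bases, where an annotated exon of the gene begins, and the other lines have 250 bases.
Drd2, chr9:49340153-49340402, plus strand: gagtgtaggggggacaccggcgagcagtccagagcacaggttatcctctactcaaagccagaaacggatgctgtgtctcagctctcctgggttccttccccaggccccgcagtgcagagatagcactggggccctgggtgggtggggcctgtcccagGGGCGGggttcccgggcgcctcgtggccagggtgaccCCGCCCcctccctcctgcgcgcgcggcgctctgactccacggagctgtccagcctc
Rgs9, chr11:109298182-109298431, minus strand: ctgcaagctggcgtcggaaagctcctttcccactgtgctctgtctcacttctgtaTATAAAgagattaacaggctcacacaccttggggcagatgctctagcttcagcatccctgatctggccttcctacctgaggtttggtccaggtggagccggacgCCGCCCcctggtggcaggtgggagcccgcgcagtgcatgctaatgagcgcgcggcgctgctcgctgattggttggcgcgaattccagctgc
Tac1, chr6:7554811-7554878, plus strand: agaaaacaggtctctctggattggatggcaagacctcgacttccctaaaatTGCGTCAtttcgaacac
Pdyn, chr2:129699939-129700188, minus strand: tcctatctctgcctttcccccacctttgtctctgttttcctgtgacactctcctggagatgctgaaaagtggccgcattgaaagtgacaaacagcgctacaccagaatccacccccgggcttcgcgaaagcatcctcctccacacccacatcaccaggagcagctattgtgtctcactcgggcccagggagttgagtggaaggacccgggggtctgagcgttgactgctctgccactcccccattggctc
A set of 6 motifs was searched on both strands in the 250 bases: the cAMP response element TGACGTCA, its core TGACG, the variant TGCGTCA known from the enkephalin gene, the TATA box TATAAA, the GC box GGGCGG and the E-box CACGTG. The variant contains the core on its opposite strand, so a match to it counts for both. Of 32851 windows in the table, 1.55% held TGACGTCA, 17.8% TGACG, 1.75% TGCGTCA, 12.4% TATAAA, 32.7% GGGCGG and 6.02% CACGTG, each on either strand. The Drd2 window held 2 GC boxes, at -93 and -56 from the start. The Rgs9 window held TATAAA at -195 and a GC box at -91. The Tac1 window held TGCGTCA at -199, the only match to it in the windows at hand, which did not cover Penk itself. The part of the Tac1 window not printed held GGGCGG at -107, CACGTG at -61 and a second core at -43. In the printed Pdyn window none of these letters were found, which says only that they are not in that window. No motif was found in the windows of every gene that had one.

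Library totals ran from 23618296 to 26615776 counts, and mitochondrial genes took 7.89% to 11.43% of them. Thy1, whose sequence drives the transgenes, averaged 2772 ± 335 TMM-scaled counts relative to library size (CPM) in 5XFAD libraries (SD, n = 3) and 725 ± 61.2 CPM in WT libraries (SD, n = 4) at 6 months, and 2820 ± 585 CPM in 5XFAD and 577 ± 53.3 CPM in WT libraries (SD, n = 3 each) at 11 months. All 13 libraries matched their genotype label by this gene. Comparing Y-linked counts with Xist, Y-linked counts were higher in 3 of 3 5XFAD and 2 of 4 WT libraries at 6 months, and in 1 of 3 5XFAD and 2 of 3 WT libraries at 11 months, so the mix of sexes read this way differed between groups. Genes of cortical excitatory neurons were present in every library, with 977.3 to 2007 CPM summed over 10 genes such as Slc17a7 and Neurod6. A pair of WT libraries stood apart. Replicate 1 at 6 months held 2912 CPM of Ttr, the main transcript of the choroid plexus, against 1.615 to 30.8 CPM in the other libraries. Replicate 3 at 11 months had the lowest cortical excitatory sum, 977.3 CPM, and the highest sum of 6 genes of striatal cholinergic interneurons, 106.1 CPM.

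None of the 9 genes passed the test between genotypes at either age or between ages in either genotype. Their levels differed between libraries of the same genotype and age by far more than those of most genes. Over the 13 libraries the highest level was 5.4 times the lowest for Pdyn and 21.6 times for Adora2a. The within-group SD on the log2 CPM scale was 0.72 for Pdyn, 0.89 for Ppp1r1b, 0.94 for Pde10a, 1.09 for Rgs9, 1.13 for Tac1, 1.14 for Penk, 1.26 for Drd1, 1.29 for Drd2 and 1.31 for Adora2a. The median gene had 0.203, and the members lay between the 94.8th percentile (Pdyn) and the 99.2nd (Adora2a) of all tested genes. The spread was not alike in the groups. Its median over the members, as an SD on the log2 scale, was 0.92 in 5XFAD and 0.60 in WT libraries at 6 months, and 0.81 in 5XFAD and 1.95 in WT libraries at 11 months, against 0.14, 0.18, 0.15 and 0.23 for the median gene in the same groups.

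**Figure D1:**
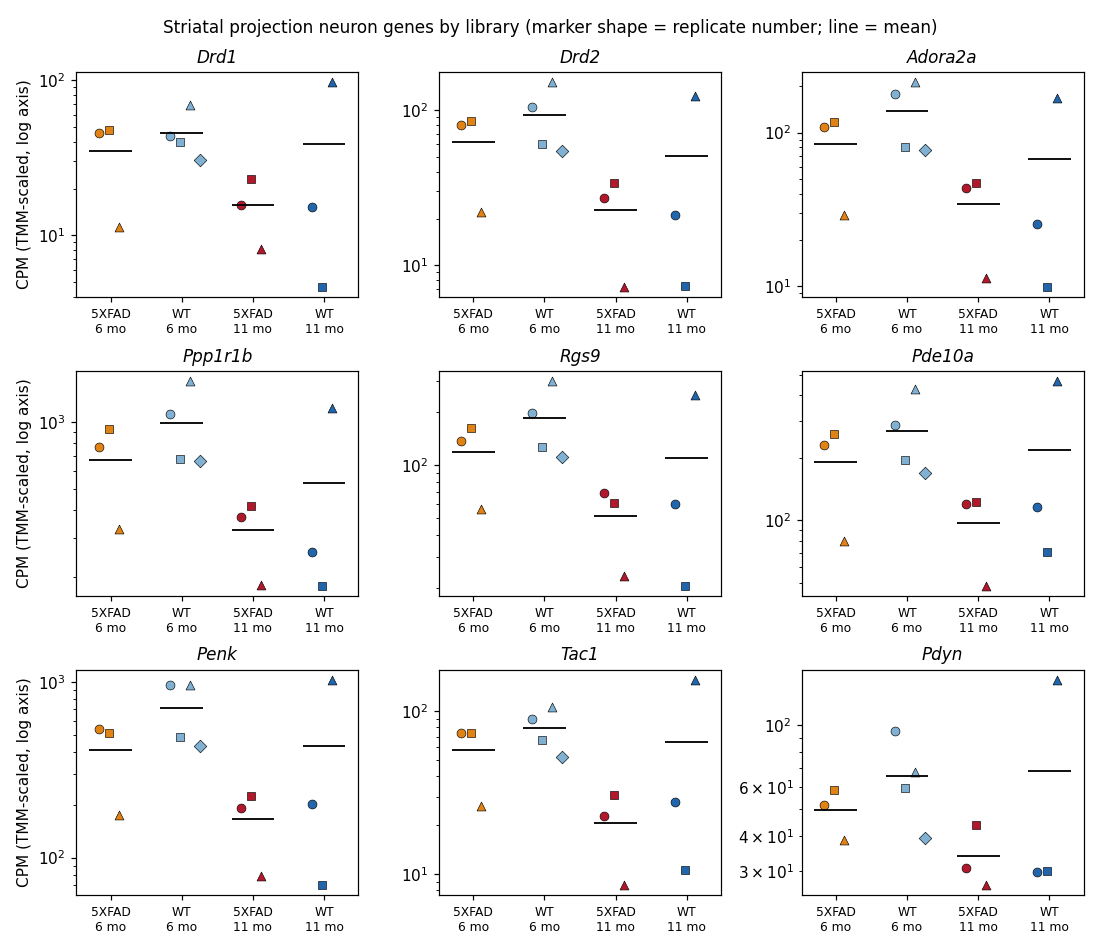
Level of each of the 9 genes in every library, in TMM-scaled CPM on a log axis; each point is 1 library, the marker shape gives its replicate number and the line is the group mean. The groups overlap for every gene, and 1 WT library at 11 months (replicate 3, triangle) lies far above the other 2, for Drd1 at 97.02 against 15.14 and 4.644 CPM.

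Among the receptors, Drd1, the dopamine receptor of the direct pathway (ENSMUSG00000021478, chr13:54051183-54055705, minus strand, GRCm38), was at 45.71, 47.42 and 11.35 CPM in 5XFAD libraries 1 to 3, against 43.53, 39.70, 68.77 and 30.39 CPM in WT libraries 1 to 4 at 6 months. At 11 months it was at 15.70, 23.14 and 8.175 CPM in 5XFAD libraries, against 15.14, 4.644 and 97.02 CPM in WT libraries. At both ages the groups overlapped, and at 11 months WT replicates 2 and 3 were the lowest and the highest of all 13 libraries. The log2 fold change, 5XFAD over WT, was -0.39 ± 0.86 at 6 months (SE; adjusted p = 0.937) and -1.31 ± 0.95 at 11 months (adjusted p = 0.575) in edgeR's quasi-likelihood test over all genes.

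Drd2, the dopamine receptor of the indirect pathway (ENSMUSG00000032259, chr9:49340627-49408177, plus strand), was at 80.53, 84.27 and 22.03 CPM in 5XFAD libraries, against 105, 60.09, 151 and 54.57 CPM in WT libraries at 6 months. Levels at the older age of 11 months were 27.03, 33.75 and 7.245 CPM in 5XFAD libraries, against 21.12, 7.35 and 122.1 CPM in WT libraries. 5XFAD replicate 3 was the lowest library of its group at both ages, and the groups overlapped. The differences were -0.57 ± 0.89 log2 units at 6 months (adjusted p = 0.905, edgeR) and -1.15 ± 0.97 at 11 months (adjusted p = 0.645).

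Adora2a, the adenosine receptor that opposes Drd2 in the same neurons (ENSMUSG00000020178, chr10:75316877-75334784, plus strand), was at 108, 116.5 and 29.07 CPM in 5XFAD libraries, against 179.5, 80.94, 213.2 and 77.36 CPM in WT libraries at 6 months. At 11 months it was at 43.74, 47.10 and 11.31 CPM in 5XFAD libraries, against 25.58, 9.854 and 167.3 CPM in WT libraries. WT replicate 3 was the highest library at each age, as for Drd2, and the groups overlapped. The differences were -0.71 ± 0.92 log2 units at 6 months (adjusted p = 0.881, edgeR) and -0.99 ± 0.99 at 11 months (adjusted p = 0.709).

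Of the intracellular signalling genes, Ppp1r1b, whose protein inhibits protein phosphatase 1 once protein kinase A has phosphorylated it (ENSMUSG00000061718, chr11:98348404-98357796, plus strand), had the highest level of the members per transcript length. It was at 769.7, 925.9 and 328.9 CPM in 5XFAD libraries, against 1080, 681.7, 1529 and 665.7 CPM in WT libraries at 6 months. Levels at the older age of 11 months were 371.4, 417.7 and 183.3 CPM in 5XFAD libraries, against 258.2, 182.2 and 1154 CPM in WT libraries. The groups overlapped, and the 2 lowest libraries, 5XFAD replicate 3 and WT replicate 2 at 11 months, were nearly level. The differences were -0.55 ± 0.65 log2 units at 6 months (adjusted p = 0.873, edgeR) and -0.71 ± 0.69 at 11 months (adjusted p = 0.697).

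Rgs9, which speeds the shut-off of G proteins behind dopamine and opioid receptors (ENSMUSG00000020599, chr11:109225355-109298129, minus strand), was at 137.8, 162.7 and 56.65 CPM in 5XFAD libraries, against 199.3, 127.1, 301.2 and 111.1 CPM in WT libraries at 6 months. At 11 months it was at 69.83, 60.81 and 23.52 CPM in 5XFAD libraries, against 59.93, 20.60 and 251.1 CPM in WT libraries. As for the receptors, replicate 3 was the low library of 5XFAD mice and the high library of WT mice at both ages. The differences were -0.63 ± 0.77 log2 units at 6 months (adjusted p = 0.875, edgeR) and -1.11 ± 0.83 at 11 months (adjusted p = 0.591).

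Pde10a, which breaks down cAMP and cGMP in both classes of neuron (ENSMUSG00000023868, chr17:8525372-8986648, plus strand), was at 230, 260.2 and 79.38 CPM in 5XFAD libraries, against 287.2, 194.3, 424.7 and 168.4 CPM in WT libraries at 6 months. Levels at the older age of 11 months were 119.8, 122.7 and 48.58 CPM in 5XFAD libraries, against 115.8, 71.00 and 465.9 CPM in WT libraries. WT replicate 3 at 11 months was the highest of all libraries and 5XFAD replicate 3 at 11 months the lowest. The differences were -0.50 ± 0.68 log2 units at 6 months (adjusted p = 0.887, edgeR) and -1.17 ± 0.73 at 11 months (adjusted p = 0.5).

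Of the neuropeptide precursors, Penk, which gives the enkephalins (ENSMUSG00000045573, chr4:4133531-4138819, minus strand), was at 542.5, 510.9 and 174.7 CPM in 5XFAD libraries, against 962.5, 487.1, 959.5 and 431.7 CPM in WT libraries at 6 months. For mice of 11 months the levels were 192.5, 222.7 and 78.92 CPM in 5XFAD libraries, against 202.3, 69.95 and 1029 CPM in WT libraries. The groups overlapped at both ages. The differences were -0.79 ± 0.81 log2 units at 6 months (adjusted p = 0.852, edgeR), the largest of the members at that age, and -1.40 ± 0.87 at 11 months (adjusted p = 0.499).

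Tac1, the precursor of substance P (ENSMUSG00000061762, chr6:7554879-7565834, plus strand), was at 73.65, 73.56 and 26.42 CPM in 5XFAD libraries, against 89.93, 66.84, 106.9 and 52.08 CPM in WT libraries at 6 months. Levels at the older age of 11 months were 22.66, 30.73 and 8.64 CPM in 5XFAD libraries, against 27.97, 10.58 and 155.9 CPM in WT libraries. At 11 months 2 of the 3 WT libraries lay within the range of the 5XFAD libraries. The differences were -0.45 ± 0.79 log2 units at 6 months (adjusted p = 0.92, edgeR) and -1.65 ± 0.88 at 11 months (adjusted p = 0.415), the largest of the members.

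Pdyn, the precursor of the dynorphins (ENSMUSG00000027400, chr2:129686565-129699844, minus strand), was at 51.51, 58.29 and 38.78 CPM in 5XFAD libraries, against 94.97, 59.61, 67.53 and 39.54 CPM in WT libraries at 6 months. Its 11-month levels were 30.79, 43.95 and 26.81 CPM in 5XFAD libraries, against 29.69, 30.05 and 144.7 CPM in WT libraries. Pdyn varied least of the members, and its lowest libraries did not drop as far as those of the others: its lowest level was 18.5% of its highest, against 4.62% for Adora2a. The differences were -0.40 ± 0.54 log2 units at 6 months (adjusted p = 0.885, edgeR) and -1.01 ± 0.58 at 11 months (adjusted p = 0.451).

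Between members, levels can be compared per transcript length. In TPM, which is scaled for transcript length, the median level over the 13 libraries was 775.4 for Ppp1r1b, 511.9 for Penk, 93.82 for Tac1, 93.24 for Rgs9, 48.63 for Adora2a, 32.66 for Drd2, 31.67 for Pde10a, 26.55 for Pdyn and 13.15 for Drd1. The ranges of neighbours in this order overlapped, for instance 79.74 to 1274 TPM for Penk and 183.8 to 1743 TPM for Ppp1r1b. The smallest value of all rested on 115 counts, for Drd1 in WT replicate 2 at 11 months, and the largest on 39420 counts, for Ppp1r1b.

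Counted over the members, 0 of 9 passed an adjusted p under 0.05 in edgeR's test for 5XFAD against WT at 6 months, where 231 of all tested genes (1.32%) passed. At 11 months it was again 0 of 9, against 753 genes (4.31%). For 11 against 6 months, 0 of 9 passed in 5XFAD mice, against 1264 genes (7.23%), and 0 of 9 in WT mice, against 649 genes (3.71%). The difference of the genotype effect between ages was past the threshold for 0 of 9, against 1 gene (0.00572%). No member had an unadjusted p under 0.05 in any of these 5 comparisons, against 9.09%, 15.8%, 24.4%, 23.8% and 3.96% of all genes in the same order, and DESeq2 called 0 members in each of the 5. The median log2 fold change of the members was -0.55 at 6 months and -1.15 at 11 months for 5XFAD over WT, against -0.007 and -0.027 for all tested genes. It was -1.21 for 11 over 6 months in 5XFAD mice and -0.71 in WT mice, against -0.001 and 0.015 for all tested genes. All 9 values were negative in these comparisons apart from Pdyn in WT mice, at 0.06. The comparisons share libraries, and the members move together, so these are not 9 separate observations. In bulk tissue, fewer cells of a type and less RNA per cell cannot be told apart.

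No member had groups without overlap in any comparison, in either direction. Among all genes, 5.07% were lower and 6.97% higher without overlap in 5XFAD against WT libraries at 6 months, and 8.76% and 10.4% at 11 months. For 11 against 6 months the shares were 17.3% and 18.4% in 5XFAD libraries, and 7.96% and 9.11% in WT libraries.

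The 11-month values rested on 1 library. Without WT replicate 3, the log2 fold changes of 5XFAD over WT at 11 months were above 0 for all 9 members, from 0.05 for Pde10a and 0.10 for Tac1 to 0.94 for Adora2a, with a median of 0.35 and 0 of 9 called. Without WT replicate 2 the median was -1.60, and 5 of 9 members had an unadjusted p under 0.05, against 17.2% of all genes, with 0 of 9 called. For 11 over 6 months in WT mice, leaving out replicate 3 gave a median of -2.20 and an unadjusted p under 0.05 for 9 of 9 members, against 26.3% of all genes, again with 0 of 9 called after adjustment. The difference of the genotype effect between ages had a median of -0.60 over all libraries and 1.05 without that library. The same median was 0.12 with limma on TPM and -0.05 with sex, read from Xist and Y-linked counts, as a covariate, so its direction was not stable. At 6 months, leaving out 5XFAD replicate 3, the lowest of its group, left Drd1 at 0.03 and all other members below 0.

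The members varied together across libraries, and with other striatal genes that are not members. A striatal index was computed per library as the mean log2 deviation from the 13-library mean of 23 other genes of striatal projection neurons, among them the sodium channel subunit Scn4b, the adenylyl cyclase Adcy5 and the transcription factor Isl1. The index was 0.526, 0.691 and -0.83 in 5XFAD libraries and 0.895, 0.36, 1.297 and 0.151 in WT libraries at 6 months. The 11-month index was -0.376, -0.306 and -1.466 in 5XFAD libraries and -0.791, -1.51 and 1.359 in WT libraries. Thus 1 5XFAD library at 6 months was low among high libraries, and 1 WT library at 11 months was high among low ones.

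Over the 13 libraries, Pearson's r between a member's log2 CPM and the index was 0.979 for Drd1, 0.988 for Drd2, 0.988 for Adora2a, 0.990 for Ppp1r1b, 0.986 for Rgs9, 0.984 for Pde10a, 0.984 for Penk, 0.977 for Tac1 and 0.882 for Pdyn. Spearman's rho ran from 0.934 for Pdyn to 0.995 for Pde10a. The permutation p of each r was 1e-05, the smallest that 100000 permutations can give, except for Pdyn at 5.00e-05; the p of each rho was 1e-05, and 9 relations were computed. For comparison, r with the index had a median of -0.013 over all tested genes, a 95th percentile of 0.727, and was at least 0.95 for 85 genes (0.486%). These figures include the members and the genes that make up the index, which correlate with it by construction. Leaving out the 2 libraries farthest from the median index, 5XFAD replicate 3 and WT replicate 2 at 11 months, r lay between 0.867 (Pdyn) and 0.990 (Drd2). On deviations from the group means, so within genotype and age, r lay between 0.877 (Pdyn) and 0.995 (Ppp1r1b and Pde10a). Genes of one library share its depth and scaling. The slopes differed: per log2 unit of the index, Adora2a moved by 1.49, Drd2 by 1.47, Penk by 1.33, Drd1 by 1.29, Tac1 by 1.28, Rgs9 by 1.23, Ppp1r1b by 1.04, Pde10a by 1.01 and Pdyn by 0.65 log2 units.

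**Figure D2:**
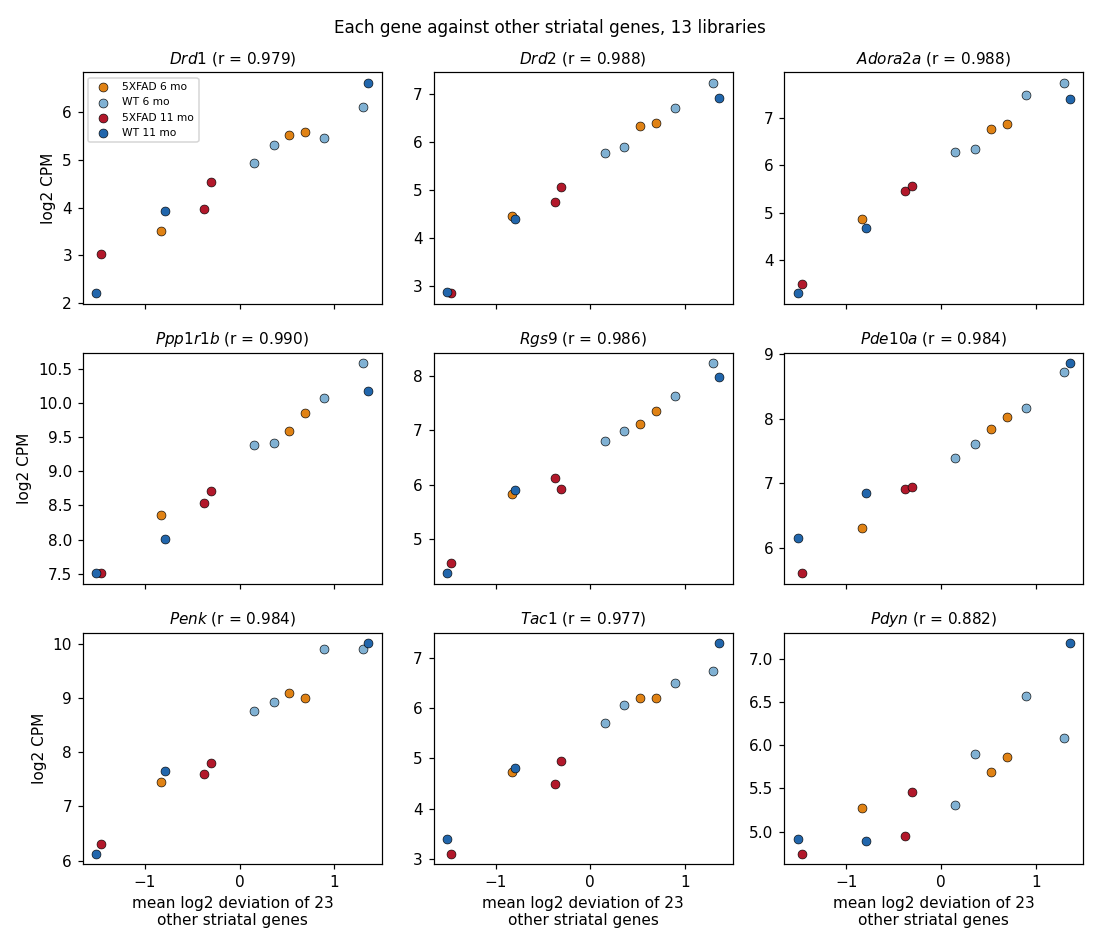
Log2 CPM of each member (y axis) against the striatal index, the mean log2 deviation of 23 other striatal genes (x axis), with 1 point per library coloured by group. Libraries of all 4 groups lie along 1 line for 8 of the genes (r of 0.977 to 0.990), and Pdyn scatters more (r = 0.882).

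Between members, r over the 13 libraries was highest for Drd2 and Adora2a, both of the indirect pathway, at 0.996, and lowest for Drd2 and Pdyn, at 0.835. All 8 pairs with Pdyn were at 0.886 or below, and all other pairs at 0.955 or above. The pair of receptor genes that mark the 2 classes, Drd1 and Drd2, had r = 0.971. Within a library, the ratio of Drd1 to Drd2 CPM was 0.568, 0.563 and 0.515 in 5XFAD and 0.415, 0.661, 0.455 and 0.557 in WT libraries at 6 months. The ratio at 11 months was 0.581, 0.686 and 1.13 in 5XFAD and 0.717, 0.632 and 0.795 in WT libraries. Genotypes overlapped at both ages; the highest ratio was in a library with little of either transcript, 8.175 CPM of Drd1 and 7.245 CPM of Drd2.

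Ratios between partner genes other than Pdyn stayed within narrower bounds than the levels did. Adora2a to Drd2 ran from 1.32 to 1.62 in 5XFAD libraries and from 1.21 to 1.71 in WT libraries, while the level of Adora2a spanned 21.6-fold and that of Drd2 20.8-fold. Tac1 to Penk ran from 0.109 to 0.151 in 5XFAD and from 0.0934 to 0.152 in WT libraries. Ratios with Pdyn did not hold so closely. Pdyn to Penk ran from 0.0949 to 0.34 in 5XFAD and from 0.0704 to 0.43 in WT libraries, a span wider than that of the Pdyn level. Pdyn to Drd1 was 3.42 and 3.28 in 5XFAD replicate 3 at 6 and 11 months and 6.47 in WT replicate 2 at 11 months, the libraries with little Drd1, against 0.982 to 2.18 in the other libraries.

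The 10 genes whose pattern over the 13 libraries was most like the mean of the 9 members, among 14914 genes with a mean of at least 1 CPM, included Slc35d3 (r = 0.997), Pde1b (0.989), Isl1 (0.988), Sh3rf2 (0.988), Plppr1 (0.987), Rerg (0.987), Gpr6 (0.984) and Six3 (0.983). Of the 10, 7 belong to the list of other striatal genes. For 8 of the members the most alike gene was Spock3 for Drd1 (0.988), Sh3rf2 for Drd2 (0.995), Syndig1l for Adora2a (0.992), Slc35d3 for Rgs9 (0.993), Penk (0.989) and Tac1 (0.991), Lingo3 for Pde10a (0.982) and Slc32a1, the vesicular transporter of inhibitory neurons in general, for Pdyn (0.955). These values describe likeness and were not tested.

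Markers of other cells that a piece of frontal cortex could hold were read beside the index. Genes of striatal cholinergic interneurons (Chat, Slc5a7, Slc18a3, Lhx8, Ecel1 and Slc10a4) followed it, with r = 0.98 for their mean deviation. Their summed level was 8.626 to 34.10 CPM in 5XFAD and 22.34 to 69.08 CPM in WT libraries at 6 months, and 9.995 to 15.33 CPM in 5XFAD and 4.685 to 106.1 CPM in WT libraries at 11 months. The list of deep cortical layer 6 and claustrum genes had r = 0.88 with the index and that of cortical interneurons 0.59, while cortical excitatory neurons ran the other way, with r = -0.74, lowest in WT replicate 3 at 11 months. Genes of the interneuron list did not move alike. In that library Gad1, Gad2, Slc32a1 and Lhx6 were at their highest of all libraries (473.1, 374.1, 153.6 and 29.61 CPM). Vip, Pvalb, Cck and Npy were at their lowest there (10.04, 23.28, 112.1 and 74.16 CPM), and the other genes of that list lay between. Of the other lists, r was 0.60 for choroid plexus, 0.59 for olfactory bulb, 0.40 for ependyma, -0.08 for thalamus and -0.51 for dentate gyrus. The part of any of these cells in the members' levels was not tested.

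**Figure D3:**
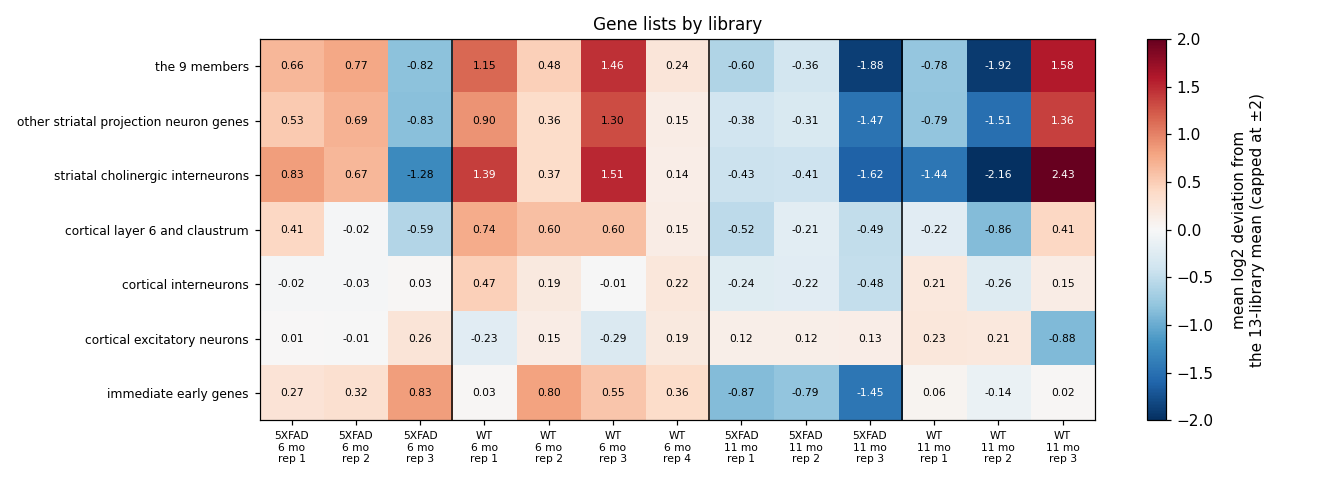
Mean log2 deviation from the 13-library mean of the members and of 6 lists of marker genes (rows) in each library (columns), with the value printed in each cell and the colour scale capped at 2. The members, the other striatal genes and the cholinergic genes share their high and low libraries; the 3 5XFAD libraries at 11 months are low in immediate early genes, at -0.87, -0.79 and -1.45.

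None of the 23 other striatal projection neuron genes passed the test in any comparison, and none of the 6 cholinergic genes did. The median log2 fold change of the 23 was -0.50 at 6 months and -0.78 at 11 months for 5XFAD over WT, and all 23 values were negative at both ages. Of the 22 partners in cAMP and phosphatase signalling, such as adenylyl cyclase, G protein and protein kinase A subunits, 3 of which (Adcy5, Gnal and Pde1b) are also among the 23, 1 was called: Arpp19, which inhibits protein phosphatase 2A in dividing cells, fell in 5XFAD mice at 11 against 6 months (log2 fold change -0.60 ± 0.15, edgeR adjusted p = 0.0306). That call held in 2 of 6 fits with 1 library left out. In WT mice the mean of Arpp19 was 455.6 CPM at 6 months and 352.7 CPM at 11 months, and it was not called. Of 9 tested receptors for dopamine, adenosine, opioid and tachykinin ligands, Adora3 rose in 5XFAD against WT mice at 11 months (1.57 ± 0.31, adjusted p = 0.00703), to 2.306, 2.823 and 2.247 CPM in 5XFAD libraries against 0.5578, 1.131 and 0.7911 CPM in WT libraries. Adora3 is the adenosine receptor known from mouse microglia, and its groups did not overlap; the call held in 6 of 6 fits with 1 library left out. Of 9 genes for processing neuropeptides, Scg5, the chaperone of prohormone convertase 2, fell at 11 against 6 months in 5XFAD mice (-0.54 ± 0.12, adjusted p = 0.0236) and in WT mice (-0.45 ± 0.12, adjusted p = 0.0497), and 0 of 9 were called between genotypes. Each of these Scg5 calls held in 1 fit with 1 library left out, of 6 in 5XFAD mice and 7 in WT mice. Shares called over all tested genes were 1.32% and 4.31% between genotypes at 6 and 11 months. They were 7.23% between ages in 5XFAD mice and 3.71% in WT mice.

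Among marker lists of other cells, 1 of 12 cortical interneuron and 1 of 10 cortical excitatory genes were called between genotypes at 11 months. Of all tested genes 4.31% were called there. Between ages in 5XFAD mice 1 of 6 thalamus genes was called, against 7.23% of all tested genes. Each of these counts rests on a single gene, and these lists had no call in the other comparisons. The lists of layer 6 and claustrum, choroid plexus, ependyma, olfactory bulb and dentate gyrus had no call in any comparison. Cort, the cortistatin precursor of a class of cortical interneurons, fell in 5XFAD against WT mice at 11 months (-1.73 ± 0.46, edgeR adjusted p = 0.0499), and Rorb, a transcription factor of the middle cortical layers, rose (0.68 ± 0.17, adjusted p = 0.0363). Lef1, a thalamic gene also known from vessel cells, rose in 5XFAD mice at 11 against 6 months (1.17 ± 0.23, adjusted p = 0.0136). With 1 library left out, the calls of Cort and Rorb held in 2 of 6 fits each and that of Lef1 in 3 of 6. Of 10 immediate early genes, which neurons switch on with activity, Nr4a1 (-1.15 ± 0.23, adjusted p = 0.00993) and Egr4 (-1.13 ± 0.28, adjusted p = 0.0395) fell in 5XFAD against WT mice at 11 months, and the calls held in 6 of 6 and 2 of 6 fits. In 5XFAD mice at 11 against 6 months 8 of the 10 fell (Fos, Junb, Arc, Egr1, Egr2, Egr4, Nr4a1 and Ier2), against 7.23% of all genes called in either direction. Nr4a1 and Junb held in 6 of 6 fits, while Egr1 held in 2 and Ier2 in 0. In WT mice 9 of the 10 were also lower at 11 months, with 0 called. The median log2 fold change was -0.52 there, against -1.45 in 5XFAD mice. For the difference of the genotype effect between ages 0 of the 10 were called. For 11 of the 17 calls on list genes the largest p with a library left out came without 5XFAD replicate 3 at 11 months. That is also the 5XFAD library with the lowest index. Most of the 17 calls use its group, and the same share over all called genes was not computed. Calls over all genes also fell with a library left out, between ages in 5XFAD mice from 1264 to between 97 and 798. How far the calls on list genes go with striatal content was not tested. Striatal neurons also use immediate early genes, and the mean deviation of that list had r = 0.47 with the index.

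With the striatal index as a covariate in the same edgeR model, the members' differences between genotypes were smaller at both ages. Smaller values and smaller standard errors follow largely from the correlations above, where r with the index was 0.882 to 0.990. They are therefore not a separate result, and no cause was tested. The members' median log2 fold change, 5XFAD over WT, was -0.02 at 6 months and -0.10 at 11 months, against -0.55 and -1.15 without it. The standard errors fell to between 0.08 and 0.26 at 6 months and between 0.09 and 0.28 at 11 months, against 0.54 to 0.92 and 0.58 to 0.99 without it. At 6 months 0 of 9 members were called, against 207 of all genes (1.18%). At 11 months 1 of 9 was called, against 811 genes (4.64%), so the share of members called was based on a single gene. That gene was Pde10a, at -0.39 ± 0.09 log2 units (edgeR adjusted p = 0.0228). Tac1 was at -0.50 ± 0.17 (adjusted p = 0.128) and Adora2a at 0.30 ± 0.14 (adjusted p = 0.302), and neither passed. Pdyn, at -0.35 ± 0.28, and Penk, at -0.23 ± 0.16, did not pass either, and the other 4 members lay between -0.10 and 0.08.

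The call of Pde10a depended on single libraries. Leaving out each 11-month library in turn, its value stayed between -0.52 and -0.33, with an adjusted p of 0.00269 without WT replicate 3, 0.0496 and 0.0497 without 5XFAD replicates 1 and 2, 0.0576 without WT replicate 1, 0.117 without 5XFAD replicate 3 and 0.127 without WT replicate 2. In the libraries with the lowest index, Pde10a was at 48.58 CPM in 5XFAD replicate 3 and 71.00 CPM in WT replicate 2 at 11 months, while Ppp1r1b was at 183.3 and 182.2 CPM in the same libraries. Tac1 was called without WT replicate 2 alone (-0.72 ± 0.16, adjusted p = 0.0256). The difference of the Pde10a effect between ages, with the covariate, was -0.38 ± 0.12 with an adjusted p of 0.75. For 11 against 6 months with the covariate, 0 of 9 members were called in 5XFAD mice, against 5.11% of all genes, and 0 of 9 in WT mice, against 2.24%. Between these ages Pde10a was at 0.33 ± 0.09 in WT mice (edgeR adjusted p = 0.0703) and at -0.04 ± 0.10 in 5XFAD mice (adjusted p = 0.823). In WT mice Ppp1r1b was at -0.34 ± 0.09 (adjusted p = 0.0596) and Adora2a at -0.43 ± 0.14 (adjusted p = 0.0947). In 5XFAD mice Tac1 was at -0.48 ± 0.17 (adjusted p = 0.112).

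**Figure D4:**
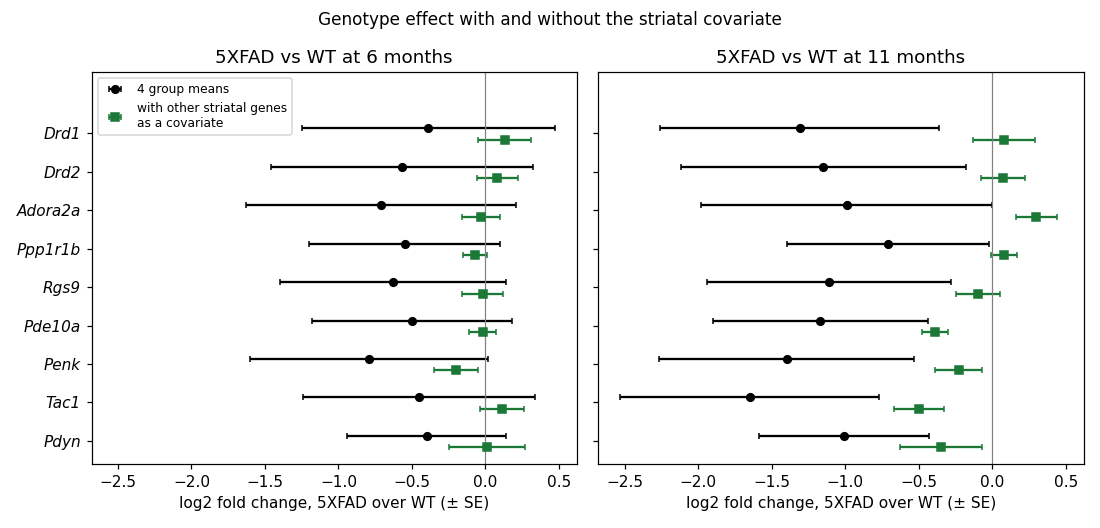
Log2 fold change of each member, 5XFAD over WT, at 6 months (left) and 11 months (right), with bars of 1 SE, from the fit with 4 group means (black circles) and from the fit that adds the striatal index as a covariate (green squares). With the covariate the bars shorten and all values lie closer to 0; those still farthest from 0 at 11 months are Tac1 at -0.50, Pde10a at -0.39 and Pdyn at -0.35.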

How the data were processed

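RNA from frontal cortex was sequenced in 13 libraries, whose titles name mRNA sequencing. The submitters' processing notes name STAR 2.7.1, RSEM and the GRCm38 build for the authors' alignment and quantification. Which RSEM version, annotation and strand setting they used is not given in the sources used here. Files that the authors deposited give, per the file headers, expected counts per gene, of which 7.24% to 7.71% per library were not whole, and TPM values. Reads shared between similar genes are split by RSEM's estimate. All 55536 gene identifiers matched GENCODE M21, which gave symbols and coordinates.

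Expected counts were rounded, filtered (filterByExpr of edgeR 4.0.16, minimum count 10, minimum total 15, 17483 genes left), scaled by TMM and fitted with 4 group means over all 13 libraries, leaving 9 residual degrees of freedom, in R 4.3.3. edgeR's robust quasi-likelihood test was used with Benjamini-Hochberg adjustment over all tested genes and a threshold of 0.05. SE values are |log2 fold change| over the root of the F statistic. Log2 CPM values used a prior count of 2. The striatal index came from 25 listed genes, of which Gpr52 was not matched and Drd3 did not pass the filter. Correlations were tested with two-sided permutation tests in numpy 2.4.6. Alternatives were RLE scaling, no filter, DESeq2 1.42.0, limma 3.58.1 on log2 of the deposited TPM plus 1, the compared groups alone, a sex or index covariate, and leaving out libraries. Leaving out both libraries that stand apart, and leaving out libraries together with the covariate, were chosen after the data were seen.

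No 2 libraries agreed within sampling noise: chi-square per gene was at least 6.5 over the 78 pairs. Libraries were grouped by title, and replicate numbers follow accession order and do not pair libraries. The members and lists were chosen with earlier results of these data known. Named genes are the members, Thy1, Ttr, list genes past the test and the genes most alike in pattern; example genes of the lists were added as descriptions. Some genes that this rule chose are not reported here. The edgeR step was tested on simulated data with the same dispersion for every gene and no variation shared between genes. That simulation does not cover genes that vary widely and together, as the members did. The human transgenes and the FPKM column were not used here.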

Additional observations from a re-analysis of the deposited data

Results flagged for a closer look

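Of the 19 values checked for a library far from the others of its group, which only the 4 WT libraries at 6 months allowed, Ttr was the one picked out. WT replicate 1 held 2912 CPM, and its gap to the next library was 0.993 of the range of the group. Chance alone picks out about 1 in 20 such groups. None of the 9 members, and no ratio between them, was picked out. In the same library the striatal index was 0.895, and the other WT libraries at that age lay between 0.151 and 1.297.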

How the results depend on the processing

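No paired analysis was possible because the library titles share no replicate number between groups. The count of 0 members called held for all 5 comparisons under RLE scaling, no filter, DESeq2, limma on TPM and the sex covariate. It also held for the compared groups alone, which was run for 4 comparisons and not for the difference of effects, and with each library left out of the comparisons that use it. With the striatal index as a covariate it became 1 at 11 months (Pde10a), and 0 to 1 when a library was also left out. All 9 correlations with the index kept their direction on TPM, on group deviations and without the 2 farthest libraries.

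Directions were less firm. With the covariate, 5XFAD over WT turned to 0.13 for Drd1, 0.08 for Drd2, 0.11 for Tac1 and 0.01 for Pdyn at 6 months, and to 0.08 for Drd1, 0.07 for Drd2, 0.30 for Adora2a and 0.08 for Ppp1r1b at 11 months. With the covariate and 1 library left out, values above 0 at 11 months were 0.25, 0.15, 0.24 and 0.01 for Drd1, 0.28, 0.06 and 0.19 for Drd2, 0.44, 0.21, 0.19, 0.23, 0.22 and 0.41 for Adora2a, 0.03, 0.16, 0.06, 0.10, 0.04 and 0.08 for Ppp1r1b and 0.14 for Rgs9. Leaving out 1 library without the covariate gave -0.67 to 0.03 for Drd1 at 6 months. At 11 months it gave -1.84 to 0.66 for Drd1, -1.66 to 0.67 for Drd2, -1.50 to 0.94 for Adora2a, -1.12 to 0.56 for Ppp1r1b, -1.60 to 0.35 for Rgs9, -1.59 to 0.05 for Pde10a, -1.90 to 0.27 for Penk, -2.15 to 0.10 for Tac1 and -1.37 to 0.18 for Pdyn. Leaving out both libraries that stand apart gave the values without WT replicate 3 (0.66, 0.67, 0.94, 0.56, 0.35, 0.05, 0.27, 0.10 and 0.18 in the same order) at 11 months. The members' median ran from -0.84 to -0.22 at 6 months and from -1.60 to 0.35 at 11 months between genotypes with 1 library left out, from -1.57 to -0.87 between ages in 5XFAD mice, from -2.20 to -0.21 in WT mice and from -1.09 to 1.05 for the difference. Limma on TPM moved it to -0.69 between genotypes at 11 months, -1.31 between ages in WT mice and 0.12 for the difference, and the sex covariate to -0.89 between genotypes at 6 months and -0.05 for the difference. The cause of these turns was not tested.

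Counts over all genes moved more than those of the members. DESeq2 called 384 genes at 6 months and 1128 at 11 months between genotypes, 2063 between ages in 5XFAD mice, 1843 between ages in WT mice and 30 for the difference of effects. Limma on TPM called 296 between ages in WT mice, 825 in 5XFAD mice and 4 for the difference. The compared groups alone gave 443 between genotypes at 11 months, 2610 between ages in 5XFAD mice and 1 in WT mice. Between ages in WT mice the sex covariate gave 345 and the index covariate 391. With 1 library left out, the counts ran from 134 to 205 and from 424 to 840 between genotypes at 6 and 11 months, from 97 to 798 between ages in 5XFAD mice, from 0 (without WT replicate 4 at 6 months) to 1921 in WT mice, and from 1 to 3 for the difference; the index covariate without 5XFAD replicate 3 gave 483 at 11 months.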
